A study of Mus musculus with 31 samples.

Results

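The thick ascending limb of the loop of Henle was followed in mouse kidney through 7 genes, chosen by symbol as labels of that segment: Umod, Slc12a1, Kcnj1, Bsnd, Cldn16, Cldn19 and Ppp1r1a. All 7 were found among the 23509 genes counted, and all 7 were among the 15185 that passed the filter on low counts. RNA-seq was done on whole kidneys of 31 mice in 3 groups. Wild-type CD1 mice without treatment, given as male and age-matched (n = 5), served as the reference. Pcy/CD1 mice, a slowly progressing polycystic kidney disease model on the same strain carrying the Pcy mutation, were injected subcutaneously from 5 weeks of age for 25 weeks, to 30 weeks of age, with PBS (n = 12) or with RGLS4326 at 25 mg per kg monthly (n = 14). The labels give weekly dosing for the PBS mice, and their protocol text gives monthly dosing for both Pcy groups. The labels do not give the sex of the Pcy mice, and the study describes them as male and their PBS dosing as weekly. RGLS4326 is a short oligonucleotide that inhibits microRNAs of the miR-17 family. There was no untreated Pcy group and no treated wild-type group, so an effect of injection itself cannot be told apart from the genotype.

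The thick ascending limb takes up sodium chloride without water and so dilutes the tubular fluid and builds the salt gradient of the medulla. Sodium, potassium and chloride enter from the lumen through NKCC2, encoded by Slc12a1 and the target of loop diuretics. Potassium returns to the lumen through ROMK, encoded by Kcnj1, and chloride leaves on the blood side through channels that need the subunit barttin, encoded by Bsnd. The resulting voltage drives calcium and magnesium between the cells through a pore in which claudin-16 and claudin-19 (Cldn16, Cldn19) act together. Umod encodes uromodulin, the most abundant protein of normal urine, and Ppp1r1a encodes inhibitor-1 of protein phosphatase 1, which protein kinase A activates. Kcnj1 and Bsnd are also used in more distal segments, and barttin also in the thin limb and intercalated cells, so these genes label the segment less strictly than Slc12a1 and Umod.

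Depth was similar in all groups, with 14892524 to 27459962 counts on genes per mouse and group medians of 19961466 (wild type), 20562148 (PBS) and 19898000 (RGLS4326). Levels are given as CPM, a gene's counts relative to a library size scaled by edgeR's TMM factors. On the first principal component, which held 61.6% of the variance, RGLS4326 mouse 9 stood at 73.1, beside the wild-type mice (78.3 to 91.1) and apart from the other RGLS4326 mice (at most 17.3), so calls for that group that were lost or gained without it are given both ways. Wild-type mice 3 and 4 were by far the most alike pair of their group, at 2.56 times the variance that counting alone gives (15.1 to 21.0 in the other pairs). That exceeds counting noise, but it does not tell 2 mice from 2 libraries of 1 mouse. They were kept as 2 mice, as labelled. The numbers in the library names restart within each group and give 3 index series of 4, 4 and 4 PBS, 4, 5 and 5 RGLS4326 and 2, 2 and 1 wild-type mice. What the series stand for was not given, and they enter only as alternatives to the fit, which has no term for them. The labels call each sample a separate mouse, but do not give litters or cages.

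Because the oligonucleotide acts on microRNAs, the mature sequences of the miR-17 family are shown, from RefSeq (GRCm38.p6), 5′ to 3′, with the shared seed (bases 2 to 8) in capitals.
mmu-miR-17-5p: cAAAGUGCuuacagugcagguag
mmu-miR-20a-5p: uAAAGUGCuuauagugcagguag
mmu-miR-20b-5p: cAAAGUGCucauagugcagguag
mmu-miR-93-5p: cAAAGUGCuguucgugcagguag
mmu-miR-106a-5p: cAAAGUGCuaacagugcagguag
mmu-miR-106b-5p: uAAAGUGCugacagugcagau
All 6 carry the same seed. Its full match in a transcript, GCACTTT, was searched on the sense strand of the longest annotated 3′UTR of each gene (GENCODE vM21). It was found in 0 of the 7 genes, against 1925 of 13824 tested genes with an annotated 3′UTR (13.9%). The UTRs searched ran from 114 bases (Cldn16) to 3468 bases (Cldn19). This says only that these letters are not in these windows.

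Umod was by far the most abundant of the 7. In wild-type mice 1 to 5 it read 5464, 4437, 4980, 4859 and 4242 CPM. With PBS it ran from 3599 to 5031 CPM (median 4353), and with RGLS4326 from 4037 to 5297 CPM (median 4566). The 3 groups overlapped widely, and Umod stood at rank 15 among all genes by mean CPM in wild type, rank 7 with PBS and rank 9 with RGLS4326. The gene is at chr7:119462711-119479282 of GRCm38 (minus strand), the build of all positions given here. An antisense gene, Gm44588, shares 539 exon bases with Umod and is not in the count files. The libraries were stranded, but the strand setting of the counting was not given in the sources used here, so reads of this partner cannot be told apart from Umod.

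Slc12a1 (chr2:125152505-125230002, plus strand) read 1353, 1257, 1199, 1239.9 and 1208 CPM in wild-type mice 1 to 5. With PBS it ran from 551 to 1159 CPM (median 901), and all 12 PBS mice lay below all 5 wild-type mice. With RGLS4326 it ran from 710.1 to 1467 CPM (median 1009). In that group 12 of 14 mice lay below all wild-type mice, and mice 6 (1467 CPM) and 9 (1420.3 CPM) lay above all of them. The spread also differed between the groups, with a coefficient of variation of 4.93% in wild type, 22.6% with PBS and 22.5% with RGLS4326.

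Kcnj1 (chr9:32372493-32399197, plus strand) read 259.5, 240.0, 272, 263 and 202 CPM in wild-type mice 1 to 5. It ran from 233 to 303 CPM (median 281) with PBS and from 220.2 to 294 CPM (median 265) with RGLS4326. Of the PBS mice, 7 were above all wild-type mice and 1 wild-type mouse was below all PBS mice. Bsnd (chr4:106483456-106492283, minus strand) varied least between groups. It read 70.4, 72.6, 72.0, 62.9 and 75.2 CPM in wild type, 63.9 to 77.5 CPM (median 73.5) with PBS and 62.1 to 81.8 CPM (median 69.3) with RGLS4326. Its 3 ranges nearly coincided, and its highest value was that of RGLS4326 mouse 9.

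Of the paired claudins, Cldn16 (chr16:26463135-26482765, plus strand) was low and variable in wild type, at 10.8, 10.4, 15.4, 14.6 and 8.01 CPM. It ran from 11.7 to 21.9 CPM (median 15.2) with PBS and from 10.6 to 18.3 CPM (median 13.045) with RGLS4326, which overlapped both other groups. These levels rest on 133 to 595 counts per mouse, the fewest of the 7 genes. Cldn19 (chr4:119255414-119262438, plus strand) read 52.1, 57.4, 50.3, 48.7 and 52.0 CPM in wild type. It ran from 74.2 to 127 CPM (median 95.2) with PBS and from 57.9 to 96.2 CPM (median 84.2) with RGLS4326. Every Pcy mouse of either group was above every wild-type mouse, and the lowest of them was RGLS4326 mouse 9, at 57.9 CPM against 57.4 CPM in the highest wild-type mouse. An antisense gene that is not in the count files, Gm12927, shares 90 exon bases with Cldn19.

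Ppp1r1a (chr15:103530279-103538003, minus strand) read 143, 129.7, 134, 128 and 130.1 CPM in wild type. It ran from 114 to 181 CPM (median 155) with PBS and from 128 to 178 CPM (median 147) with RGLS4326. Above all wild-type mice were 9 of the 12 PBS mice and 10 of the 14 RGLS4326 mice, and 1 mouse of each Pcy group was below all of them.

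**Figure D1:**
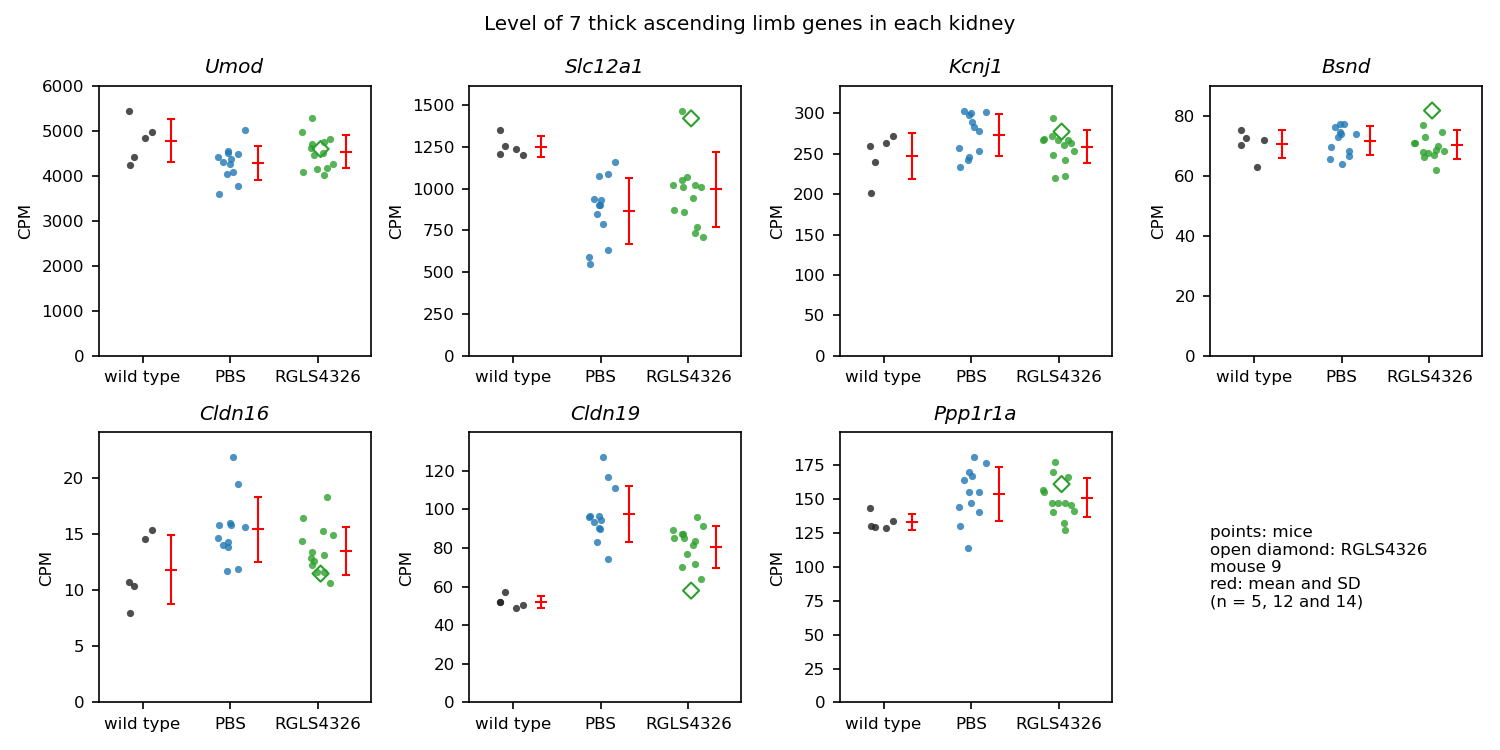
Level of each of the 7 genes in CPM (linear axes from 0) in wild-type, PBS and RGLS4326 kidneys, with 1 point per mouse and the group mean and SD in red (n = 5, 12 and 14). All PBS points of Slc12a1 lie below the wild-type points and all Pcy points of Cldn19 above them, and RGLS4326 mouse 9 (open diamond) lies with or next to the wild-type mice for both genes.

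Levels can be compared between genes only per length, so CPM was also divided by the annotated exon length. In wild type the order was Umod (1826 ± 183 CPM per kb, SD, n = 5), Slc12a1 (254 ± 12.5), Ppp1r1a (102 ± 4.59), Kcnj1 (74.2 ± 8.42), Bsnd (25.6 ± 1.70), Cldn19 (12.2 ± 0.768) and Cldn16 (10.1 ± 2.64). The last pair were closer than the spread of Cldn16 between mice, and the other neighbours stood apart by more than their spread. With PBS the order was the same, and Cldn19 at 22.9 ± 3.40 CPM per kb stood apart from Cldn16 at 13.2 ± 2.46 but not from Bsnd at 26.04 ± 1.72 (SD, n = 12). With RGLS4326 the order was again the same, with 18.9 ± 2.57 for Cldn19 and 11.5 ± 1.82 for Cldn16 (SD, n = 14).

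The first comparison, PBS-treated Pcy mice against wild type, asks how these genes stood in the cystic kidney. The 7 genes did not move together. Slc12a1 fell and Cldn19, Cldn16 and Ppp1r1a rose, while Umod, Kcnj1 and Bsnd did not pass the test. Slc12a1, the salt entry step, fell by 30.6%, from 1252 ± 61.7 to 868 ± 196 CPM (SD, n = 5 and 12), a log2 fold change of −0.53 with a standard error of 0.15 (adjusted p = 0.0026, quasi-likelihood test of edgeR, Benjamini-Hochberg over all tested genes, as for every adjusted p of a log2 fold change below). Cldn19, a part of the paracellular calcium and magnesium pore, rose by 87.2%, from 52.1 ± 3.27 to 97.5 ± 14.5 CPM, a log2 fold change of 0.90 with a standard error of 0.11 (adjusted p = 2.6e-08). Its partner Cldn16 rose less, from 11.8 ± 3.10 to 15.5 ± 2.89 CPM, a log2 fold change of 0.39 with a standard error of 0.14 (adjusted p = 0.0146). The inhibitor Ppp1r1a rose from 133 ± 5.99 to 154 ± 19.7 CPM, a log2 fold change of 0.21 with a standard error of 0.081 (adjusted p = 0.0212).

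For the remaining genes the differences were small. Umod read 4796 ± 479.6 CPM in wild type and 4294 ± 376 CPM with PBS, a log2 fold change of −0.16 (95% interval −0.31 to −0.01) that did not pass the adjustment (adjusted p = 0.0595). Kcnj1 read 247 ± 28.1 and 274 ± 25.9 CPM, a log2 fold change of 0.15 (95% interval 0.01 to 0.29, adjusted p = 0.0653). Bsnd, the chloride channel subunit, read 70.6 ± 4.68 and 71.8 ± 4.74 CPM, and its interval for the log2 fold change ran from −0.08 to 0.13 (adjusted p = 0.706). Single mice decided whether Umod and Kcnj1 passed. Leaving out 1 mouse at a time, Umod ran from −0.20 (adjusted p = 0.0305, without wild-type mouse 5) to −0.08 (adjusted p = 0.360, without wild-type mouse 1), and it also passed without PBS mouse 11 (−0.18, adjusted p = 0.0305). Kcnj1 ran from 0.08 (adjusted p = 0.296, without wild-type mouse 5) to 0.19 (adjusted p = 0.0322, without wild-type mouse 1), and it also passed without wild-type mouse 3 or PBS mouse 1, 3 or 6 (0.16 to 0.19).

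Counted over the list, 3 of the 7 genes were higher and 1 was lower at an adjusted p under 0.05, where 37.7% of all tested genes were higher and 36.6% lower. With the added threshold of an absolute log2 fold change over 0.5, 1 gene was higher (Cldn19) and 1 lower (Slc12a1), where 24.6% of all tested genes were higher and 17.8% lower. The median log2 fold change was 0.15 over the 7 genes and 0.01 over all tested genes. With 7 genes, these counts are read against a background in which most genes moved. In whole kidney, fewer cells of a type and less RNA per cell cannot be told apart.

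These directions depend on how libraries are scaled. Without TMM scaling, on library totals alone, the median log2 fold change of all genes moved to 0.38, and the split of called genes moved from 3741 higher and 2701 lower to 6285 higher and 1071 lower. On that scale 6 of the 7 genes were higher and 0 lower at an adjusted p under 0.05. Of all 15185 tested genes, 9513 were higher and 2373 lower at that threshold and scale. Slc12a1 was at −0.17 (adjusted p = 0.228) and Umod turned to 0.21 (adjusted p = 0.0092). Taken relative to the median of all genes, the values kept their place, at −0.54 with TMM and −0.55 on totals for Slc12a1, −0.17 and −0.17 for Umod, and 0.89 and 0.90 for Cldn19. Within index series 1 and 2, the only ones with at least 2 wild-type mice, Slc12a1 was at −0.53 and −0.56 (adjusted p = 0.0878 and 0.103) and Cldn19 at 0.71 and 0.89 (adjusted p = 0.0016 and 0.0059). Cldn16 was at 0.44 in series 1 (adjusted p = 0.0225) and at −0.08 in series 2 (adjusted p = 0.697), and without wild-type mouse 5 its change was 0.28 (adjusted p = 0.081). Ppp1r1a was at 0.11 and 0.16 (adjusted p = 0.474 and 0.345).

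**Figure D2:**
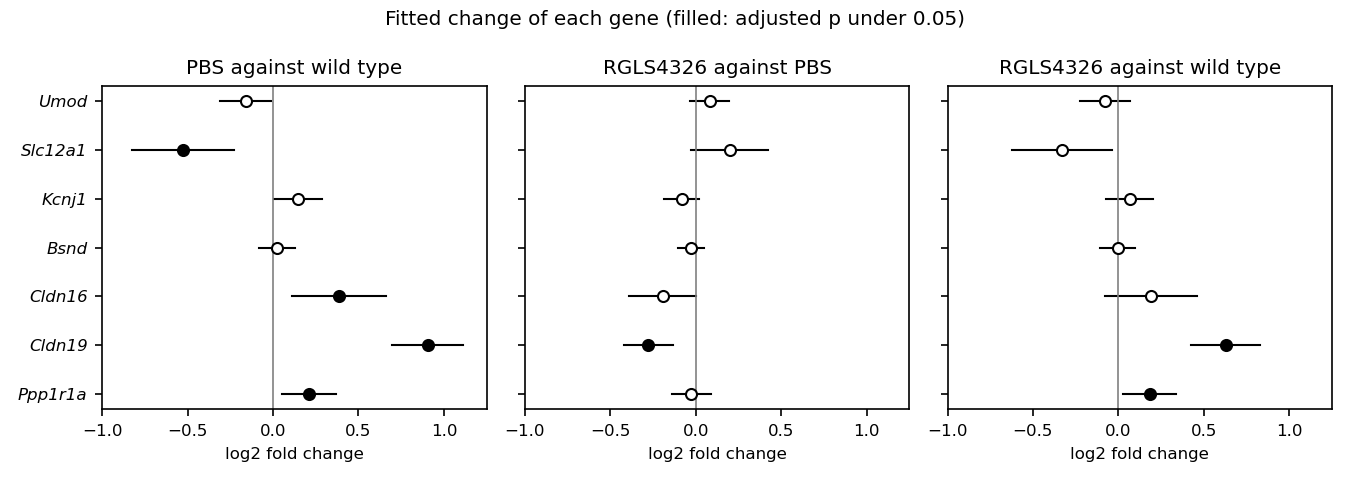
Fitted log2 fold change of the 7 genes in the 3 comparisons, with bars for approximate 95% intervals and filled points where the adjusted p was under 0.05. Cldn19 is filled in all 3 panels, at 0.90, −0.28 and 0.63, and Slc12a1 in the first alone, at −0.53.

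The second comparison, RGLS4326 against PBS within Pcy mice, asks what treatment did. Cldn19 was the 1 gene of the 7 that passed, and it fell, from 97.5 ± 14.5 CPM (SD, n = 12) to 80.5 ± 10.96 CPM (SD, n = 14), a log2 fold change of −0.28 with a standard error of 0.074 (adjusted p = 0.0205). Of the 14 treated mice, 4 were below all PBS mice, and 5 of the 12 PBS mice were above all treated mice. The fall was of 17.4% in mean CPM and left the gene above wild type. Without RGLS4326 mouse 9 it was −0.25 (adjusted p = 0.0328). Within index series 1, 2 and 3 it was −0.14, −0.23 and −0.43, and in no series alone did it pass (adjusted p = 1, 0.303 and 0.173).

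Slc12a1 read 997 ± 224 CPM with RGLS4326 against 868 ± 196 CPM with PBS, a log2 fold change of 0.20 (95% interval −0.03 to 0.43, adjusted p = 0.205). Without mouse 9 the value was 0.15 (adjusted p = 0.346), and within index series 1, 2 and 3 it was 0.05, 0.45 and 0.06 (adjusted p = 1, 0.257 and 0.868). The gap between the groups was smaller than the spread within either of them. Cldn16 read 13.5 ± 2.14 against 15.5 ± 2.89 CPM, a log2 fold change of −0.19 (95% interval −0.39 to 0.00, adjusted p = 0.158). Umod read 4541 ± 367 against 4294 ± 376 CPM, a log2 fold change of 0.08 (95% interval −0.03 to 0.19, adjusted p = 0.299).

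The other 3 transcripts were measured tightly and differed little. Kcnj1 was at a log2 fold change of −0.08 (95% interval −0.18 to 0.02, adjusted p = 0.259), Bsnd at −0.03 (−0.10 to 0.05, adjusted p = 0.640) and Ppp1r1a at −0.03 (−0.14 to 0.09, adjusted p = 0.770). Of the 7 genes, 0 were higher and 1 was lower at an adjusted p under 0.05, against 9.15% and 6.66% of all tested genes. At a raw p under 0.05 the count was also 1, where 36.8% of all tested genes had such a p in either direction, and DESeq2 gave Cldn19 alone as well. With the threshold on size 0 were called either way, against 0.935% higher and 1.22% lower of all genes. The median log2 fold change was −0.03 over the 7 genes and 0.00 over all tested genes. On library totals alone, where the median of all genes was −0.12, called genes moved from 142 higher and 185 lower to 88 higher and 600 lower. On that scale 4 of the 7 genes were lower at an adjusted p under 0.05, Cldn19 (−0.39, adjusted p = 0.0094), Kcnj1 (−0.19, adjusted p = 0.0145), Bsnd (−0.14, adjusted p = 0.0197) and Cldn16 (−0.30, adjusted p = 0.0499). At that threshold and scale, 551 of the 15185 tested genes were higher and 4132 lower.

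The third comparison, RGLS4326 against wild type, gives the distance that remained. It shares its mice with the other comparisons. Cldn19 was higher by a log2 fold change of 0.63 with a standard error of 0.10 (adjusted p = 7.9e-06), and all 14 treated mice were above all wild-type mice. Ppp1r1a was higher by 0.18 with a standard error of 0.079 (151 ± 14.3 against 133 ± 5.99 CPM, adjusted p = 0.0428). This call was narrow and was lost on leaving out any of 9 single mice, with adjusted p up to 0.0885, and with index series as a covariate (0.16, adjusted p = 0.0646). Slc12a1 stood at −0.33 (95% interval −0.62 to −0.04, adjusted p = 0.0543), and without RGLS4326 mouse 9 or mouse 6, both above all wild-type mice, it was at −0.37 (adjusted p = 0.0222) or −0.38 (adjusted p = 0.0208). With only these 2 groups fitted it was at −0.32 (adjusted p = 0.0437), and within index series 1 and 2 at −0.48 and −0.11 (adjusted p = 0.125 and 0.792).

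The other genes did not pass against wild type, with Umod at −0.08 (adjusted p = 0.361), Kcnj1 at 0.07 (adjusted p = 0.419) and Bsnd at 0.00 (adjusted p = 0.956). Cldn16 was at 0.19, with a wide 95% interval of −0.08 to 0.46 (adjusted p = 0.218), and it was 0.40 within index series 1 (adjusted p = 0.0392) and −0.24 within series 2 (adjusted p = 0.264). Of the 7 genes, 2 were higher and 0 lower at an adjusted p under 0.05, against 32.5% and 32.4% of all tested genes. With the threshold on size 1 was higher and 0 lower, against 20.3% and 11.3%. At a raw p under 0.05 1 gene was lower (Slc12a1), where 68.1% of all tested genes had such a p in either direction. DESeq2 also gave Slc12a1 at a raw p under 0.05 (−0.33, p = 0.0338). Its adjusted p there was 0.0515, so by DESeq2 0 were lower at an adjusted p under 0.05. The median was 0.07 over the 7 genes and 0.00 over all genes. On library totals alone the median of all genes was 0.26, and called genes moved from 3077 higher and 1712 lower to 4634 higher and 744 lower. On that scale 6 of the 7 genes, all but Slc12a1, were higher at an adjusted p under 0.05, Umod at 0.18 (adjusted p = 0.0240) and Bsnd at 0.25 (adjusted p = 0.00039) among them. At that threshold and scale, 8448 of the 15185 tested genes were higher and 2079 lower.

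Whether the genes changed by unequal amounts was tested inside each kidney, as the ratio of each gene to Slc12a1, in which library scaling cancels. The ratio was taken as log2 of CPM + 1 over Slc12a1 CPM + 1, groups were compared by two-sided permutation of mice (exact against wild type, 100000 resamples between Pcy groups), and p-values were adjusted over the 18 comparisons. With PBS the mean of each of the 6 ratios was above wild type. The Cldn19 ratio differed most, at −3.12 ± 0.453 with PBS and −4.56 ± 0.0989 in wild type (SD, n = 12 and 5), a difference of 1.44 on the log2 scale (adjusted p = 0.0015, exact permutation). The difference was 0.94 for Cldn16 (adjusted p = 0.0036, exact permutation), 0.76 for Ppp1r1a (0.0015), 0.71 for Kcnj1 (0.0015), 0.59 for Bsnd (0.0018) and 0.40 for Umod (0.0018). For Cldn19, Kcnj1 and Ppp1r1a all 12 PBS mice were above all wild-type mice, and for Umod, Bsnd and Cldn16 11 of 12 were. Slc12a1 was thus lower relative to each of the other genes, Umod included, in the cystic kidney. The 6 ratios share Slc12a1, so they are not independent results. Their common direction largely follows from its log2 fold change, the lowest of the 7 genes.

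With RGLS4326, 2 of the 6 ratios were lower than with PBS. The Cldn19 ratio differed from PBS by −0.48 (adjusted p = 0.0219, permutation) and the Kcnj1 ratio by −0.28 (adjusted p = 0.0303, permutation). Without mouse 9 these were −0.40 (adjusted p = 0.0337, permutation) and −0.25 (adjusted p = 0.0454, permutation). The other 4 differences, for Cldn16 (−0.38), Bsnd (−0.23), Ppp1r1a (−0.22) and Umod (−0.12), had adjusted p from 0.0658 to 0.259 by permutation. Slc12a1 had the highest log2 fold change of the 7 genes here (0.20), so the common direction of the 6 differences largely follows from it.

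Against wild type, all 6 ratios were still higher with RGLS4326, by 0.28 (Umod, adjusted p = 0.0478, exact permutation) to 0.97 (Cldn19, adjusted p = 0.0018, exact permutation). The shared denominator applies here too, as Slc12a1 had the lowest log2 fold change of the 7 genes. All 14 treated mice were above all wild-type mice for Ppp1r1a, 13 for Cldn19 and 8 for Cldn16. Leaving out 1 wild-type mouse, or RGLS4326 mouse 9, the Umod difference stayed at 0.25 to 0.32 and that of Cldn16 at 0.45 to 0.67. Their calls were narrow and were lost without any of 4 (Umod) or 3 (Cldn16) of the 5 wild-type mice, with adjusted p up to 0.0969 (exact permutation).

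**Figure D3:**
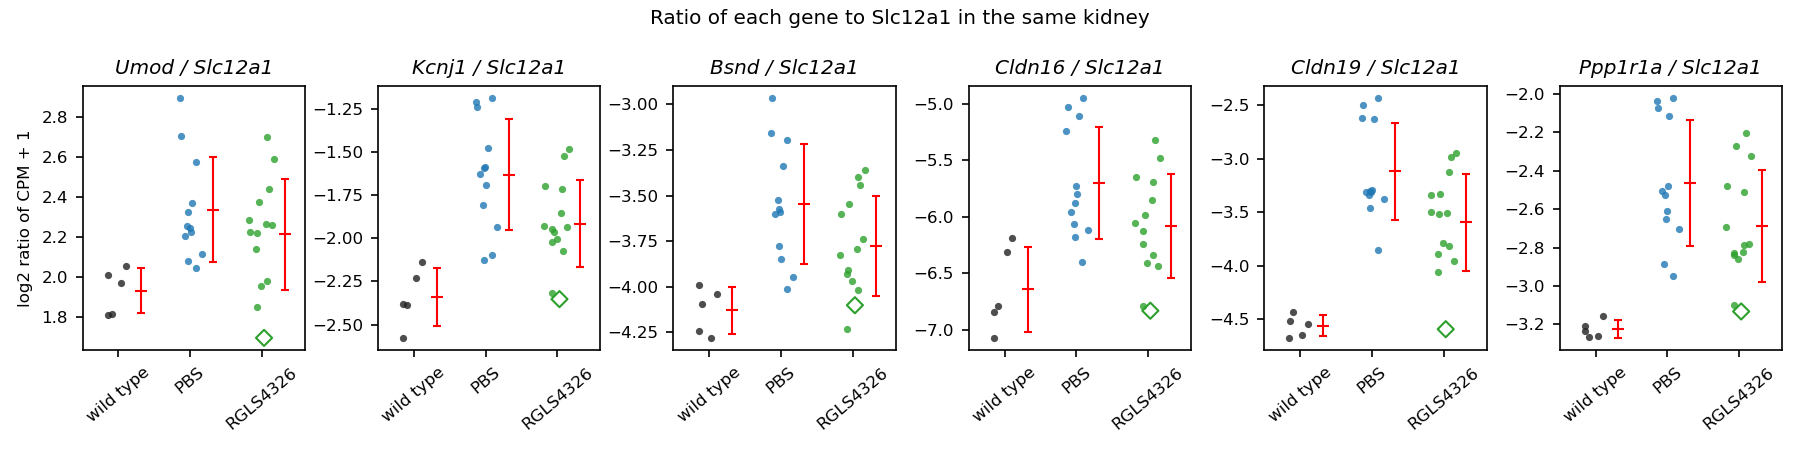
Log2 ratio of each gene to Slc12a1 in the same kidney (CPM + 1), with 1 point per mouse and the group mean and SD in red (n = 5, 12 and 14). The PBS mean lies above the wild-type mean in all 6 panels, by 0.40 for Umod to 1.44 for Cldn19, and the RGLS4326 mean lies between them, with points that overlap those of PBS.

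Mice of 1 group differed among themselves, and the genes were therefore related to Slc12a1 and to Lcn2, which encodes NGAL, a secreted protein of injured tubules, within PBS and within RGLS4326 mice (26 relations of log2(CPM + 1), permutation p-values adjusted over them). Lcn2 ran from 205 to 1205 CPM with PBS and from 2.76 CPM (mouse 9) to 607 CPM with RGLS4326. Slc12a1 was lower where Lcn2 was higher. With PBS, r was −0.84 (adjusted p = 0.0074, permutation) and rho −0.74 (adjusted p = 0.0433, permutation), and without the 2 mice farthest from the median of Lcn2 r was −0.73 (adjusted p = 0.0582), so the PBS relation passed the test only with those mice. With RGLS4326, r was −0.72 (adjusted p = 0.0074, permutation) and rho −0.83 (adjusted p = 0.0052, permutation), and r was −0.78 without the 2 farthest mice and −0.73 without mouse 9. After centring each index series, r was −0.92 and −0.69.

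The claudins went the other way. Cldn19 was higher where Lcn2 was higher with RGLS4326 (r = 0.80, adjusted p = 0.0074, and rho = 0.72, adjusted p = 0.0401, permutation), at r = 0.71 without mouse 9 (adjusted p = 0.0261). Without the 2 farthest mice r was 0.66 (adjusted p = 0.0625), so that call rested on them. With PBS the Cldn19 relation did not pass (r = 0.65, adjusted p = 0.0746, and rho = 0.55, adjusted p = 0.185, permutation). For Cldn16, r was 0.69 with PBS (adjusted p = 0.0578, rho = 0.69, adjusted p = 0.0683, permutation) and 0.56 with RGLS4326 (adjusted p = 0.103), where rho was 0.83 (adjusted p = 0.0052, permutation). For that pair r was 0.77 without mouse 9 (adjusted p = 0.0196, permutation). After centring each index series, the Cldn19 values were 0.59 (PBS) and 0.81 (RGLS4326), and the Cldn16 values 0.65 and 0.51. Whether the slopes differ between the groups was not tested.

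Umod followed Slc12a1 among PBS mice, with r = 0.78 (adjusted p = 0.015, permutation) and rho = 0.73 (adjusted p = 0.0433, permutation), and r was 0.92 without the 2 mice farthest from the median of Slc12a1 and 0.82 after centring each index series. Among RGLS4326 mice the same relation did not pass (r = 0.46, adjusted p = 0.190, and rho = 0.24, adjusted p = 0.544, permutation). With Lcn2, Umod passed in neither group, at r = −0.55 with PBS and −0.06 with RGLS4326 (adjusted p = 0.131 and 0.923, permutation). Cldn16 and Cldn19 went against Slc12a1 without passing, at r = −0.39 and −0.28 with PBS and −0.57 and −0.54 with RGLS4326 (adjusted p from 0.103 to 0.449, permutation). Without the 2 farthest mice Cldn19 with Slc12a1 passed under RGLS4326, at r = −0.75 (adjusted p = 0.0304, permutation), though r was −0.33 without mouse 9. Kcnj1, Bsnd and Ppp1r1a passed with neither gene in either group. A pair chosen after its values were seen was Cldn16 with Cldn19, at r = 0.90 among PBS and r = 0.73 among RGLS4326 mice (rho 0.64 and 0.75). It is given as a description, with no test. All these values share library scaling, as both genes of a relation come from 1 library.

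**Figure D4:**
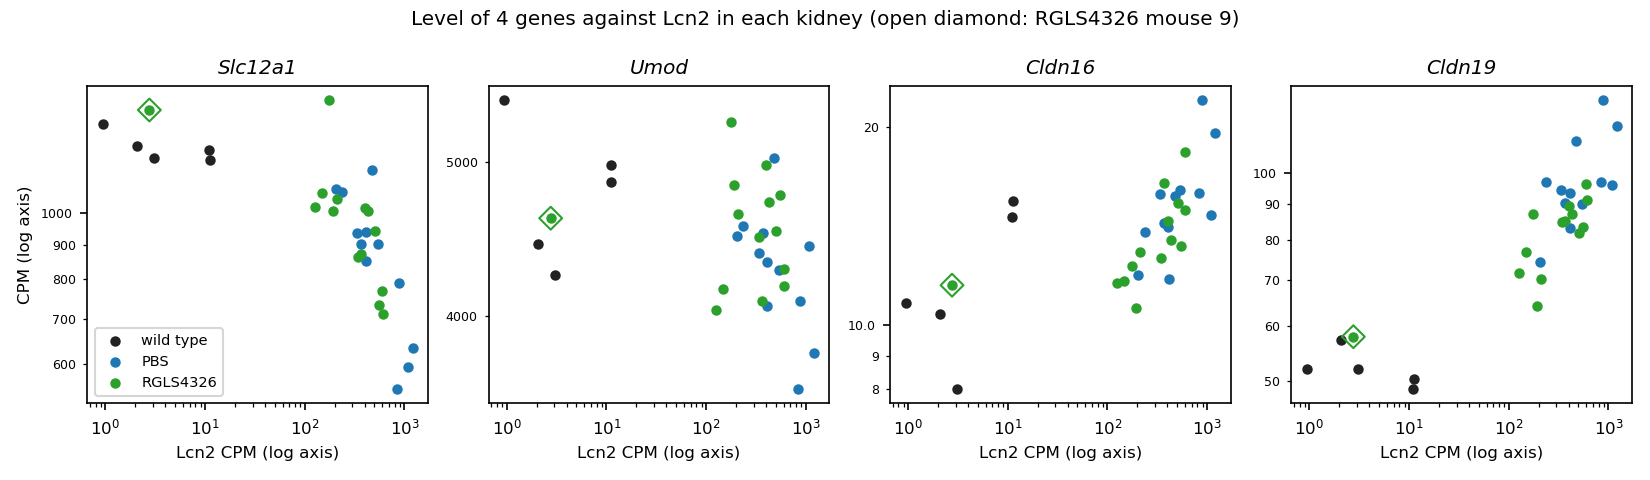
CPM of Slc12a1, Umod, Cldn16 and Cldn19 against Lcn2 CPM in each kidney (log axes), coloured by group, with RGLS4326 mouse 9 ringed. Within the Pcy groups Slc12a1 falls with Lcn2 (r = −0.84 with PBS and −0.72 with RGLS4326) and Cldn19 climbs with RGLS4326 (0.80, against 0.65 with PBS, which did not pass), and mouse 9, at 2.76 CPM of Lcn2, lies beside the wild-type mice.

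Over the 26 Pcy mice, with group means removed, the 5 genes most like the mean of the 7 (among 11516 other genes averaging 5 CPM or more) included Tmem72 (r = 0.75), Kng2 (0.74), Pou3f3 (0.71) and Aldoc (0.68). These are descriptions, chosen as the highest of many. Centred in the same way, r of Slc12a1 was −0.47 with Cldn16 and −0.41 with Cldn19, and 0.37 to 0.62 with the rest of the 7. The mean of the 7 thus joins genes that moved in opposite directions between mice. Pou3f3 encodes a transcription factor of the developing loop, Kng2 a kininogen and Aldoc an aldolase.

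A wider list of 20 genes linked to the thick ascending limb was tested in the same fit. In PBS mice 5 were higher and 8 lower than in wild type at an adjusted p under 0.05 (4 and 4 with the threshold on size), where 37.7% of all tested genes were higher and 36.6% lower (24.6% and 17.8% with the threshold). The median log2 fold change was −0.09, and on library totals 9 were higher and 4 lower. On library totals, 9513 of all 15185 tested genes were higher and 2373 lower with PBS, and 551 and 4132 with RGLS4326. These counts, at an adjusted p under 0.05, are to be read beside those on library totals for this list and the lists below. Cldn3, another claudin, rose from 8.57 ± 1.38 to 32.1 ± 11.5 CPM (log2 fold change 1.91, adjusted p = 5.2e-07). Car15, a carbonic anhydrase, rose from 80.6 ± 5.23 to 248 ± 57.4 CPM (1.62, adjusted p = 1.5e-08), and Maged2, which supports NKCC2 at the membrane, rose from 19.9 ± 2.26 to 42.4 ± 7.65 CPM (1.09, adjusted p = 5.1e-08). Pth1r, the parathyroid hormone receptor, which the proximal tubule also uses, fell from 857 ± 63.3 to 540.4 ± 77.3 CPM (−0.67, adjusted p = 2.4e-07). All were measured in whole kidney, so which cells carried these changes was not determined.

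Outside the naming rule, and named after their values were seen, 3 genes that belong functionally with the 7 also fell. Egf, the growth factor precursor made by the thick limb and distal convoluted tubule, fell from 1910.3 ± 310.4 to 844 ± 255 CPM (−1.18, adjusted p = 3.1e-06). Casr, the calcium-sensing receptor, was at −0.77 (adjusted p = 1.7e-05), and Cldn10, the sodium-selective claudin of this segment, at −0.54 (adjusted p = 7.3e-06). With RGLS4326, 1 of the 20 passed against PBS, Maged2 at −0.30 (adjusted p = 0.0327), and without mouse 9 it was at −0.26 (adjusted p = 0.0531). Of all tested genes 9.15% were higher and 6.66% lower, so 1 of 20 is near the background. The median was 0.08, and Tmem207, a membrane protein, was at 0.30 (adjusted p = 0.0703).

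The sodium pump, which empties the cell of sodium on the blood side, and the kinases that switch NKCC2 and its relatives were mostly lower with PBS, though not on library totals (6 higher and 4 lower). Of 16 genes, 3 were higher and 11 lower (0 and 5 with the threshold on size), with a median log2 fold change of −0.32, where 37.7% of all tested genes were higher and 36.6% lower (24.6% and 17.8% with the threshold). The pump subunit Atp1b1 fell from 2982 ± 197 to 1847 ± 257 CPM (−0.69, adjusted p = 7.7e-07). The kinase scaffolds Cab39l and Cab39 fell by 0.60 and 0.31 on the log2 scale (adjusted p = 8.0e-08 and 5.4e-07), whereas Stk39, encoding the kinase SPAK that they activate, was higher by 0.44 (adjusted p = 1.4e-06). With RGLS4326 3 were higher and 0 lower (0 with the threshold on size), with a median of 0.10, and on library totals 0 were higher and 3 lower. For all genes the shares were 9.15% higher and 6.66% lower. The 3 were the kinase Wnk1 (0.26, adjusted p = 0.0344, named after its value was seen), Ppp1cb, a catalytic subunit of the phosphatase that inhibitor-1 acts on (0.23, adjusted p = 0.0306), and Cab39 (0.13, adjusted p = 0.0201). Without mouse 9, Wnk1 was at 0.22 (adjusted p = 0.0591) and the other pair still passed. The pump is used along the whole nephron, so these values are not those of the thick limb alone.

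Among 5 genes of uromodulin handling, 1 was higher and 3 were lower with PBS, with a median of −0.19 (3 and 1 on library totals). The shares of all tested genes were 37.7% higher and 36.6% lower. Hpn, the protease that releases uromodulin from the membrane, fell from 622 ± 40.04 to 391 ± 49.5 CPM (−0.67, adjusted p = 6.5e-08). The chaperone gene Dnajb11 was at −0.19 (adjusted p = 0.0016). Muc1, a mucin also made by distal nephron and collecting duct, rose from 23.1 ± 14.2 to 113 ± 29.5 CPM (2.30, adjusted p = 6.3e-08). With RGLS4326 2 were higher, among them Hpn at 0.20 (adjusted p = 0.0404), and 1 was lower, Muc1 at −0.55 (adjusted p = 0.0415), with a median of 0.10, against 9.15% higher and 6.66% lower of all tested genes. On library totals 0 were higher and 1 lower. Without mouse 9 Hpn was at 0.17 (adjusted p = 0.0707) and Muc1 at −0.49 (adjusted p = 0.0660). Hpn is also made by proximal tubule.

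Among 13 transcription factors of the loop and distal nephron, 4 were higher and 6 lower with PBS (0 and 4 with the threshold on size, against 24.6% and 17.8% of all tested genes), with a median of −0.14. Without that threshold the shares of all tested genes were 37.7% higher and 36.6% lower. On library totals 7 were higher and 1 lower. Esrrg, an orphan nuclear receptor of oxidative cells, fell from 87.5 ± 4.26 to 45.9 ± 8.47 CPM (−0.93, adjusted p = 7.3e-07), its relative Esrrb by 0.48 on the log2 scale (adjusted p = 0.00039) and Tfap2b by 0.44 (adjusted p = 1.3e-05). Prdm16 was higher by 0.44 (adjusted p = 1.0e-05). With RGLS4326 1 was higher and 1 lower, the latter Prdm16 at −0.19 (adjusted p = 0.0279), with a median of 0.09, and without mouse 9 only Prdm16 passed (adjusted p = 0.0382). For all tested genes the shares were 9.15% higher and 6.66% lower, so 1 of 13 each way is near the background. On library totals 0 were higher and 5 lower.

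Markers of the neighbouring segments and of other cell types were read beside these genes, and their part in the results was not tested. Of all tested genes, the shares that passed, to be read beside each of these lists, were 37.7% higher and 36.6% lower with PBS, and 9.15% and 6.66% with RGLS4326. With PBS, 7 of 10 distal convoluted tubule genes were lower and 1 higher (Trpv5), with a median of −0.67. Their summed level was 2260 to 2960.1 CPM in wild type, 1315 to 1919 CPM with PBS and 1327 to 2631 CPM with RGLS4326, where mouse 9 gave the highest sum. Pvalb, encoding parvalbumin, fell from 66.3 ± 9.59 to 4.70 ± 2.09 CPM (−3.83, adjusted p = 1.1e-07), and Kcnj16 (−1.07), Cnnm2 (−0.66) and Calb1 (−1.13) fell as well. With RGLS4326 3 of these were higher, Pvalb (1.27, adjusted p = 0.040), Calb1 (0.43, adjusted p = 0.0475) and Cnnm2 (0.21, adjusted p = 0.0324), with a median of 0.21, and on library totals 1 was higher and 2 lower. The 3 calls were lost without mouse 9, which carried much of the Pvalb value. It read 76.6 CPM of Pvalb, where the other 13 treated mice read 3.82 to 9.57 CPM, and without it Pvalb was at 0.42 (adjusted p = 0.151), Calb1 at 0.31 (adjusted p = 0.0885) and Cnnm2 at 0.17 (adjusted p = 0.0520). Over the same kidneys the 7 thick limb genes summed to 5918 to 7354 CPM in wild type, 4696 to 6870 CPM with PBS and 5552 to 7404 CPM with RGLS4326, which is mostly Umod.

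Proximal tubule genes were lower and most principal cell genes of the collecting duct higher with PBS. All 11 proximal tubule genes were lower with PBS (median −1.15, led by Slc22a6, Slc13a3, Slc27a2 and Slc34a1), and their sum was 66883 to 83401 CPM in wild type, 23754 to 50325 CPM with PBS and 35294 to 61585 CPM with RGLS4326. The highest of the RGLS4326 sums was that of mouse 9. With RGLS4326 6 of the 11 were higher than with PBS (median 0.37), and without mouse 9 1 passed, Slc22a6 (0.29, adjusted p = 0.0457). The median without that mouse was 0.33, and the other 5 had adjusted p of 0.0629 to 0.0836. Of 8 principal cell genes, 7 were higher and 1 lower (Aqp4) with PBS (median 1.41, led by Avpr2, Hsd11b2, Scnn1g and Fxyd4), with sums of 650 to 1073, 1669 to 3347 and 1030.1 to 2337 CPM in the same order, and with RGLS4326 6 were lower (median −0.37, led by Scnn1b and Aqp3), with or without mouse 9. Mouse 9 had the lowest principal cell sum of the RGLS4326 mice. Of 7 intercalated cell genes 3 were higher and 2 lower with PBS (median 0.06, led by Foxi1, Slc4a1, Atp6v1g3 and Slc26a4), near the shares of all genes, and on library totals 5 were higher and 1 lower. Of 6 thin limb genes 2 were higher (Slc14a2 and Fst) and 1 lower (Aqp1), with a median of 0.58. For these lists the medians with RGLS4326 were −0.02 and 0.00, and the smallest adjusted p were 0.0900 (Foxi1) and 0.187 (Aqp1). On library totals 3 of the 7 intercalated cell genes were lower with RGLS4326.

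**Figure D5:**
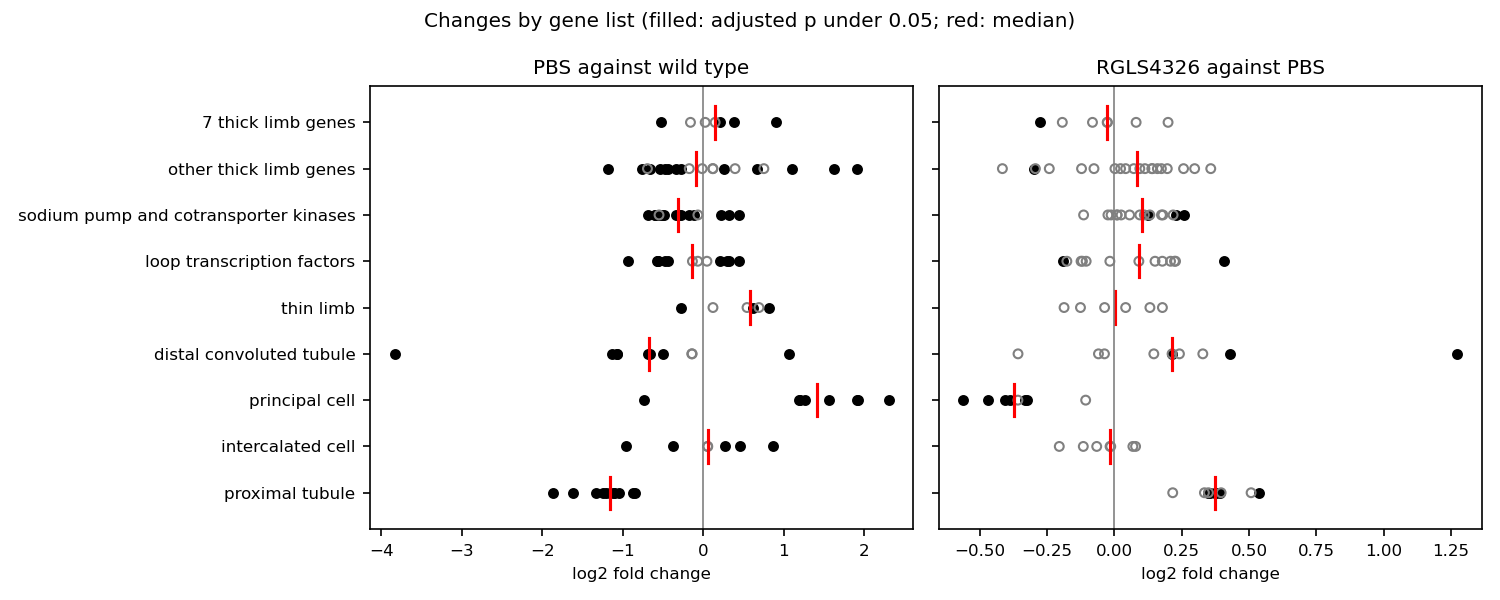
Log2 fold change of each gene (points, filled where the adjusted p was under 0.05) and the median (red) of the 7 thick limb genes, 3 related lists and 5 other nephron segments, in PBS mice relative to wild type (left) and in RGLS4326 mice relative to PBS (right). The medians with PBS run from −1.15 (proximal tubule) over 0.15 (the 7 genes) to 1.41 (principal cell), and with RGLS4326 from −0.37 (principal cell) to 0.37 (proximal tubule).

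Most injury, immune and fibroblast markers were higher with PBS than in wild type. All 7 injured tubule genes were higher with PBS (median 3.23, led by Vcam1, Krt20, Lcn2 and Krt18), and their sum was 172 to 204 CPM in wild type, 587 to 1951 CPM with PBS and 207 to 1253 CPM with RGLS4326. All 7 immune cell genes (median 2.14, led by C1qa, Cd68, Cd3e and Emr1) and 6 of 7 fibroblast genes (median 1.28, led by Col3a1, Col1a2, Col1a1 and Acta2) were higher, with sums of 152 to 161 and 164 to 231 CPM in wild type and of 253 to 379.6 and 551 to 1177 CPM with PBS. With RGLS4326 these sums were 147 to 468 and 260.3 to 1211 CPM, and 7 of 7 injured tubule, 7 of 7 immune cell and 6 of 7 fibroblast genes were higher than in wild type (medians 2.82, 1.88 and 1.05), where 32.5% of all tested genes were higher and 32.4% lower. Mouse 9 gave the lowest RGLS4326 sum of the injured tubule, immune cell and fibroblast genes. Without it 7 of 7 fibroblast genes were higher than in wild type (median 1.07). With PBS, of 5 podocyte genes 2 were higher (Synpo and Wt1, median 0.19), and of 5 endothelial genes 2 were lower (Kdr and Flt1, median −0.33). On library totals 3 podocyte genes were higher and 0 lower, and 1 endothelial gene was higher and 1 lower (median 0.03). Between RGLS4326 and PBS these 5 lists had medians of −0.51, −0.09, −0.24, −0.09 and 0.00 in the order given. Their smallest adjusted p were 0.0508 (Krt18), 0.126 (Emr1, which passed without mouse 9 at 0.53, adjusted p = 0.0329), 0.165 (Acta2), 0.0915 (Synpo) and 0.444 (Kdr). On library totals 2 injured tubule genes, 1 immune cell gene and 1 podocyte gene were lower with RGLS4326 than with PBS, and 0 were higher. None of the markers was at 0 in every mouse.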

How the data were processed

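The authors extracted kidney RNA with RNeasy, made stranded poly(A) libraries, trimmed reads, aligned them with STAR to GRCm38 and counted them per gene with HTSeq 0.6.1 (versions of the other steps that are given: FastQC 0.11.2, SAMtools 1.1, Picard 1.119). The deposited values are raw counts per gene, 1 file per mouse, with no normalization by the authors. The 5 HTSeq summary lines stayed out of library sizes (reads in no gene 10.4 to 12.5%, ambiguous 0.381 to 0.503%).

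Groups came from the sample titles. Genes passing filterByExpr were fitted with edgeR 4.0.16 (R 4.3.3), with TMM scaling and 1 coefficient per group over all 31 mice, by the quasi-likelihood test with Benjamini-Hochberg adjustment. Called genes passed 0.05 on the adjusted p and 0.5 on the size of the log2 fold change. Standard errors, taken as the size of the log2 fold change over the root of its F statistic, and the intervals from them are approximate. Ratios and relations used log2(CPM + 1) with permutation of mice. p-values measure the spread between these mice.

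Coordinates, exon lengths and 3′UTRs came from GENCODE vM21 (GRCm38). The symbol Adgre1 was matched to its older symbol Emr1. Of each list, the 4 genes with the smallest p for PBS against wild type and the 2 for RGLS4326 against PBS were named, and genes named otherwise are said to be so. Some genes of the lists are counted but not reported here by name. The members and lists were chosen with earlier results of these data known. Same-numbered mice are different animals. Alternatives were another scaling, filter, test (DESeq2 1.42.0) and pseudocount, 2-group fits, index series, a replicate block and leaving out single mice. The list counts without RGLS4326 mouse 9, and the member and list counts on library totals, were added after seeing the data. The rest was done in Python 3.11.15 (scipy 1.17.1, numpy 2.4.6, matplotlib 3.10.9, pandas 2.3.3).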

Additional observations from a re-analysis of the deposited data

How the results depend on the processing

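The number of genes called in all was 6442 (PBS against wild type), 327 (RGLS4326 against PBS) and 4789 (RGLS4326 against wild type), and without the threshold on size 11281, 2402 and 9861. For RGLS4326 against PBS it was 0 in index series 1, 0 in series 2 and 0 in series 3 by edgeR, with 277, 3001 and 3019 genes at an unadjusted p under 0.05. It was 43 with a replicate block, 688 on library totals and 385 with DESeq2. For RGLS4326 against wild type it was 365 in index series 2. Leaving out 1 mouse at a time gave 6254 to 6612, 78 to 578 and 4569 to 5135 called genes, the lowest of the second range without PBS mouse 10 and the highest without RGLS4326 mouse 2.

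Same-numbered mice deviated together no more than others (mean correlations of 0.067 over 5, −0.055 over 12 and −0.023 over 5 pairs), so the replicate block is given here only. With it Cldn19 in RGLS4326 against PBS was −0.27 (adjusted p = 0.0718), Cldn16 in PBS against wild type 0.37 (0.0545) and Ppp1r1a 0.13 (0.187), Slc12a1 and Ppp1r1a in RGLS4326 against wild type −0.45 (0.0335) and 0.09 (0.365), and Bsnd in PBS against wild type −0.012.

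Signs turned as follows. On library totals Umod turned to 0.21 (PBS against wild type), −0.029 (RGLS4326 against PBS) and 0.18 (RGLS4326 against wild type), and Bsnd to 0.25 in the last comparison, with the medians of all genes at 0.38, −0.12 and 0.26. In index series 2 Bsnd was 0.087 and 0.14 in the comparisons of RGLS4326 with PBS and wild type, Cldn16 −0.076 and −0.24 in those of PBS and RGLS4326 with wild type, and Ppp1r1a 0.066 in RGLS4326 against PBS. In series 3 Umod was −0.043 in RGLS4326 against PBS. With only the 2 groups fitted Bsnd was 0.0079 in RGLS4326 against wild type. Leaving out 1 mouse at a time, Bsnd ran from −0.015 to 0.049 (PBS against wild type) and from −0.041 to 0.023 (RGLS4326 against wild type). The causes were not tested. Without the 2 farthest mice, r turned to −0.055 for Kcnj1 with Slc12a1, to 0.27 for Bsnd with Lcn2 and to 0.0079 for Ppp1r1a with Lcn2 (PBS), and without RGLS4326 mouse 9 to 0.010 for Bsnd with Lcn2. None of these had passed.

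Under leave-one-out Slc12a1 in PBS against wild type ran from −0.57 to −0.47 (adjusted p at most 0.0129) and Cldn19 in RGLS4326 against PBS from −0.31 to −0.24 (adjusted p at most 0.0495). Umod in PBS against wild type passed with DESeq2 (adjusted p = 0.0283). The number of wild-type mice (5) limits both comparisons with that group. Cldn16 rests on the fewest counts (133 in its lowest mouse), while Slc12a1 had the largest standard errors of the 7 genes (0.15, 0.12 and 0.15 in the 3 comparisons).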
